A study of Mus musculus with 2 samples.

Results

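Mir378a, its sequence relative Mir378c, and the miR-193b and miR-365 hairpins Mir193b, Mir365-1 and Mir365-2 were described in mouse adrenal gland as hairpins known from brown fat and energy metabolism. They were chosen by name, with earlier results of these data known, and all 5 were found among the 2202 microRNA genes counted. The tissue came from male B6CASTF1/J mice aged 25 days, F1 animals of a C57BL/6J by CAST/EiJ cross, with no treatment and no second group. There was 1 group with 2 libraries, called replicates 1 and 2, made from total RNA by a protocol for short RNA molecules. The source is labelled adrenal gland tissue, so cortex, medulla, vessels and any attached fat could enter the same library. In such bulk tissue, fewer cells of a type and less RNA per cell cannot be told apart. The labels number the animals apart yet record a single donor entry, so the SDs given here measure the spread between these libraries and may be technical.

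A microRNA gene is transcribed as a hairpin, from which a short mature strand is cut and loaded into a silencing complex. Bases 2 to 8 of the mature strand, the seed, choose the target messengers, and hairpins with the same seed form a family. Mir378a sits inside Ppargc1b, the gene for PGC-1beta, a coactivator of mitochondrial and fatty acid oxidation genes, and is made along with its host. In mice, raising it in fat expands brown fat, and animals that lack it are lean with raised oxidative metabolism. The hairpins of miR-193b and miR-365 are made together from a transcript that rises during brown fat formation in mice, where the cluster was reported to promote brown and restrain muscle fate, although later knockout mice formed brown fat without it. The adrenal cortex is itself rich in mitochondria, since steroid synthesis starts inside them.

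The mature strands of the miR-193 and miR-365 hairpins are shown first because they set which reads could be counted for which gene. In the RefSeq sequences below (GRCm38.p6, 5′ to 3′), capitals mark the seed. Mir193b lies at chr16:13449523-13449601 on the plus strand, and Mir193a, its relative, at chr11:79711969-79712034 on the plus strand.
mmu-miR-193b-3p: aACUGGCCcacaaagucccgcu
mmu-miR-193a-3p: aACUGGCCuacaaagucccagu
mmu-miR-193b-5p: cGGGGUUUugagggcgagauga
mmu-miR-193a-5p: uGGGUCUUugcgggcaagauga
mmu-miR-365-3p: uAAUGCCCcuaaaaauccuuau
mmu-miR-365-1-5p: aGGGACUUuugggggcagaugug
mmu-miR-365-2-5p: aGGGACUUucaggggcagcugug
The 3p strands of Mir193a and Mir193b have the same seed and 19 of 22 bases in common, and differ by U9C, A20G and G21C, counted from the 5′ end with the base of miR-193a-3p first. The longest run that Mir193b shares with any other counted hairpin is 14 bases, with Mir1941, so full-length reads of Mir193b fit a single annotated hairpin. Matches elsewhere in the genome were not examined for any of the 5. The 5p strands of Mir365-1 and Mir365-2 also share a seed and differ by U10C, G11A and A19C, with the base of miR-365-1-5p first. Their 3p strand is a single sequence held by 2 of the 2202 hairpins.

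The whole hairpins of Mir365-1 and Mir365-2 show how far that identity reaches. Mir365-1 lies at chr16:13453840-13453926 and Mir365-2 at chr11:79726400-79726511, both on the plus strand, and capitals mark the longest run they share, 27 bases.
Mir365-1: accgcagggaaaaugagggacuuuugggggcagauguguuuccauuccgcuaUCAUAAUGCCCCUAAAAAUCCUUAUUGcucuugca
Mir365-2: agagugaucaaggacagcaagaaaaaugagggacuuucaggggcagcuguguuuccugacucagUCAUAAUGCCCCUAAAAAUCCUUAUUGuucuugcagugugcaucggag
The whole miR-365-3p strand lies inside the capitals. Reads that mapped to several places were not counted for any gene, so a read lying within the capitals could be counted for neither Mir365-1 nor Mir365-2. Their counts rest on reads that reach into the other 60 bases of Mir365-1 or the other 85 bases of Mir365-2, which hold the 5p strands. The levels of Mir365-1 and Mir365-2 given below are therefore lower limits of what these loci made.

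Replicate 1 had 3588361 sense counts over all microRNA genes and replicate 2 had 4541373, and levels are given as counts per 1000000 of these (CPM). A further 2734873 reads of replicate 1 and 2781545 of replicate 2 mapped to several places. Mir122, the dominant liver microRNA, held 0.0892% of the counts in replicate 1 and 19.8% in replicate 2, and so lowered the CPM of every other gene in replicate 2. Differences between the libraries are for this reason given with Mir122 in and out of the totals. Leaving it out moved the median log2 ratio of all detected genes, replicate 1 over replicate 2, from 0.04 to -0.27, a shift of -0.30. The values without Mir122 are therefore given beside the others and not as corrected ones. A gene was called detected where each library gave it 10 counts or more, which held for 352 of the 2202 genes and for all 5 of these hairpins.

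By reads that mapped to a single place, Mir378a was one of the most abundant microRNAs in these libraries. By the same reads, which leave out those common to Mir365-1 and Mir365-2, the other 4 hairpins lay in the middle or at the bottom of the detected range. The 5 hairpins together held 6.26% of the counts in replicate 1 and 5.88% in replicate 2, a mean of 6.07% ± 0.267 (SD, n = 2). Mir378a alone supplied 99.6% of that sum in replicate 1 and 99.4% in replicate 2. The remaining 4 summed to 882 counts in replicate 1 and 1518 in replicate 2. A statement about the sum is thus a statement about Mir378a.

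Mir378a (ENSMUSG00000105200.1) lies on the minus strand of chromosome 18 (mm10, 61397835 to 61397900), within an intron of Ppargc1b and 2531 bases from the 5′ end of that gene. It had 223736 counts in replicate 1 and 265614 in replicate 2. As levels these were 62350 CPM (62092 to 62609, exact 95% Poisson interval) in replicate 1 and 58488 CPM (58265 to 58711) in replicate 2. It ranked 3 in replicate 1 and 4 in replicate 2 by these reads. The rank takes no account of the reads dropped at the 89 of 352 detected genes that share 20 bases or more with another hairpin. The detected genes nearest to it over the 2 libraries, by distance on the log2(CPM + 1) scale, were Mir126a, the endothelial hairpin, at 0.057, Mirlet7b at 0.182 and Mirlet7g at 0.769. Mir126a stood at 62826 CPM in replicate 1 and 60799 CPM in replicate 2, so both libraries placed these hairpins side by side.

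The place of Mir378a makes its level depend on the strand that is read. An annotated hairpin of the opposite strand, Gm25301 (61397813 to 61397925 on chromosome 18, 113 bases), covers it completely. On the sense strand of Mir378a there were 223736 and 265614 counts in replicates 1 and 2, and on its antisense strand 0 and 1. In replicate 1 the 0 antisense counts allow a share of up to 0.00134%, by counting error only. Where strand was ignored, Mir378a was listed at 0 in both libraries, and so was Gm25301, because reads that fit both genes were set aside as ambiguous. The sense reads of Mir378a equalled 37.4% of that ambiguous class in replicate 1 and 38.7% in replicate 2. None of the other 4 hairpins had an antisense count in either library.

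**Figure D1:**
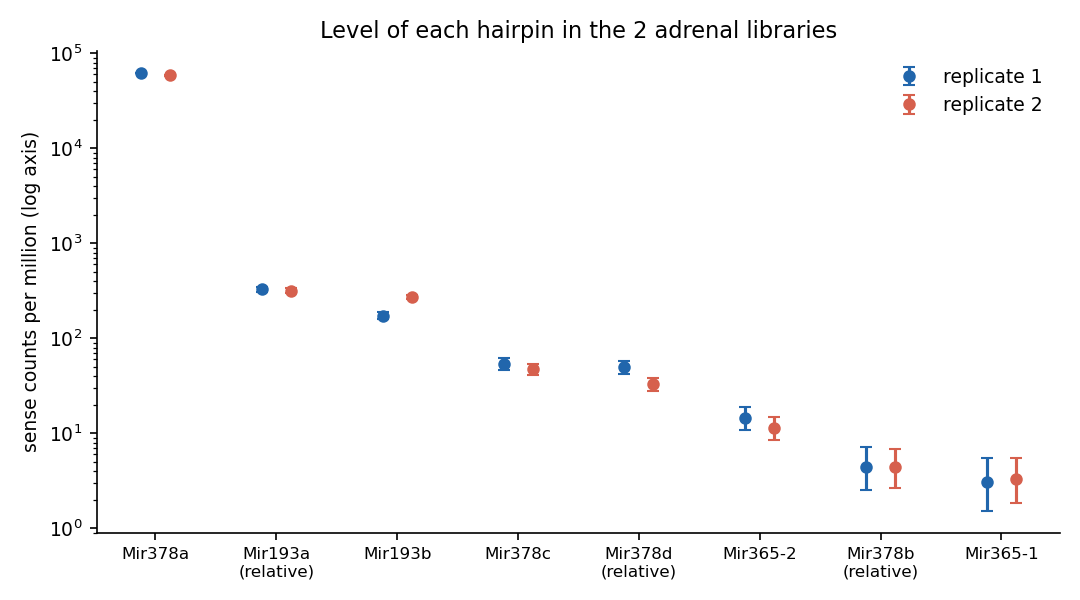
Sense CPM on a log axis for the 5 hairpins and for their relatives Mir193a, Mir378b and Mir378d, in replicate 1 (blue) and replicate 2 (red), with exact 95% Poisson intervals as bars. Mir378a stands at 62350 and 58488 CPM, and the next hairpin by counted reads, Mir193a, at 327 and 318 CPM.

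The relatives of Mir378a were counted at a small fraction of its level. Mir378c (ENSMUSG00000099036.1), on the minus strand of chromosome 14 (46954830 to 46954928), has no gene around it on its own strand and lies opposite an intron of Samd4. It had 195 counts in replicate 1 and 216 in replicate 2, or 54.3 CPM (47.0 to 62.5) and 47.6 CPM (41.4 to 54.3). Its intervals overlap between the libraries, and its mean was 51.0 CPM ± 4.79 (SD, n = 2). Mir378d, a relative on chromosome 10, had 49.6 and 32.8 CPM in replicates 1 and 2. Mir378b, opposite an intron of Msi2 on chromosome 11, had 16 and 20 counts in replicates 1 and 2.

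Shared bases limit what these counts say of Mir378c. The annotated mature strand of Mir378c has 21 bases, of which a run of 20 is also in the Mir378a hairpin and a run of 19 in Mir378b. A read cut back to that run would map to several hairpins and be dropped. The 22 bases of the mature Mir378d have at most 15 in a row in common with Mir378a. Reads counted for Mir378c are those that reach past the common run, and how many Mir378c or Mir378a reads were dropped was not measured. The mature Mir378b has 20 bases, of which a run of 19 is in Mir378a. Whether Mir378a reads with a misread or added base were counted for Mir378c or Mir378b was not tested. Their counts therefore do not by themselves show that these loci were expressed. Within each library, Mir378a had 1147 counts for each count of Mir378c in replicate 1 (997 to 1327, exact 95% interval) and 1230 in replicate 2 (1076 to 1412). The ratio of Mir378c to Mir378a was 1.07 times as high in replicate 1 as in replicate 2 (0.878 to 1.31). Fisher's exact test, two-sided and adjusted by Benjamini-Hochberg over 3 pairs of hairpins, gave p = 0.488 for that difference.

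The miR-193b and miR-365 hairpins were led by Mir193b. Mir193b (ENSMUSG00000076972.2) had 624 counts in replicate 1 and 1235 in replicate 2, or 174 CPM (161 to 188) and 272 CPM (257 to 288). The libraries did not overlap within counting error, and replicate 2 was the higher. Its mean was 223 CPM ± 69.3 (SD, n = 2), which placed it at rank 144 by mean level. The detected genes nearest to it were Mir152, Mir381 and Mir338, at distances of 0.204 to 0.243 on the log2(CPM + 1) scale over the 2 libraries. Mir152, the nearest, had 163 and 240 CPM in replicates 1 and 2.

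Mir365-1 (ENSMUSG00000065449.1), the partner of Mir193b, starts 4238 bases downstream of it, and both lie opposite an intron of Gm15738, an antisense transcript. It had 11 counts in replicate 1 and 15 in replicate 2, or 3.07 CPM (1.53 to 5.48) and 3.30 CPM (1.85 to 5.45). These are just above the 10 counts asked of a detected gene, and a floor of 3 counts is worth 0.836 CPM in replicate 1 and 0.661 CPM in replicate 2. Mir365-2 (ENSMUSG00000065489.1), outside any other gene on chromosome 11, had 52 counts in each library, or 14.5 CPM (10.8 to 19.0) in replicate 1 and 11.5 CPM (8.55 to 15.0) in replicate 2. Mir365-2 was the higher of these copies in both libraries, with 4.73 counts per count of Mir365-1 in replicate 1 (2.44 to 10.05) and 3.47 in replicate 2 (1.92 to 6.63). This order concerns the reads outside the common 27 bases.

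The partner of Mir365-2 is Mir193a, 14365 bases upstream, so each miR-193 hairpin has a miR-365 hairpin behind it. Mir193a had 1175 counts in replicate 1 and 1446 in replicate 2, or 327 CPM and 318 CPM, and a mean of 323 CPM ± 6.39 (SD, n = 2). In the cluster of chromosome 16, Mir193b had 56.7 counts per count of Mir365-1 in replicate 1 (31.5 to 114) and 82.3 in replicate 2 (49.7 to 148). In that of chromosome 11, Mir193a had 22.6 counts per count of Mir365-2 in replicate 1 (17.1 to 30.4) and 27.8 in replicate 2 (21.1 to 37.4). The uncounted miR-365-3p reads make each of these ratios an upper limit. The ratio of Mir365-1 to Mir193b in replicate 1 was 1.45 times that in replicate 2 (0.599 to 3.40), and the ratio of Mir365-2 to Mir193a was 1.23 times (0.815 to 1.86). Fisher's exact test adjusted over the 3 pairs gave p = 0.488 for both, and the intervals leave room for differences above 1.5 times in either ratio.

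By counted reads, the order of levels among the 5 hairpins and their 3 relatives was the same in both libraries. It ran from Mir378a through Mir193a, Mir193b, Mir378c, Mir378d, Mir365-2 and Mir378b to Mir365-1. The places of Mir365-2 and Mir365-1 leave out the miR-365-3p reads common to them, so their true places may be higher. Mir378a stood 187 times above Mir193a by mean CPM. Mir378c and Mir378d were the only neighbours in that order whose library values overlapped. Mir378b and Mir365-1 were apart in the values, at 4.43 CPM and 3.18 CPM, but their counting intervals overlap in both libraries. Each count was taken as 1 read of a mature strand, which was not checked, so levels were compared without division by hairpin length. Capture of a small RNA also depends on its end bases, and the part of that in this order was not tested.

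**Figure D2:**
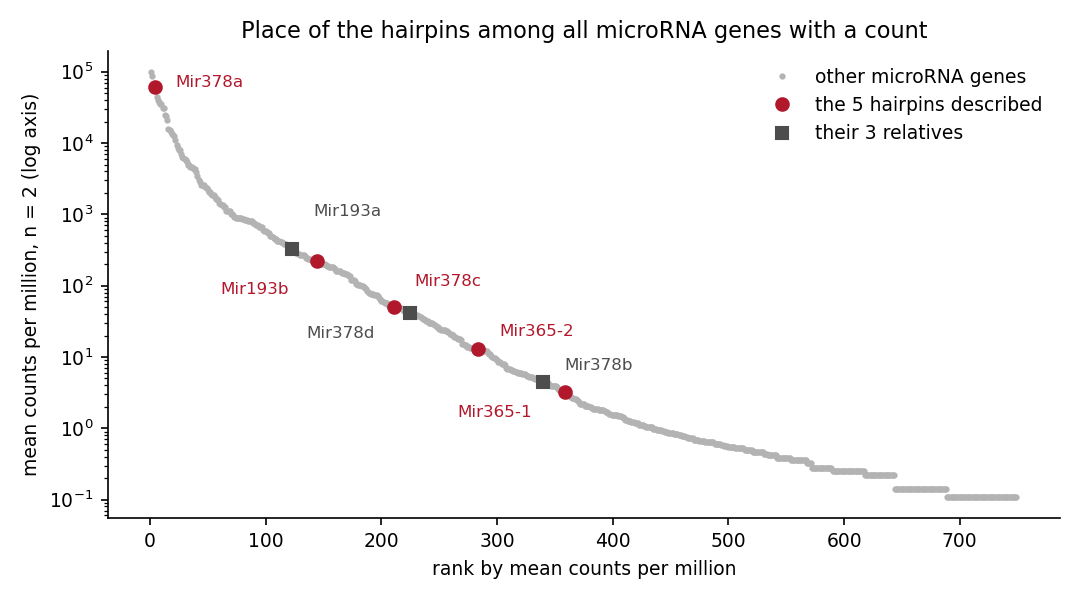
Mean CPM over 2 libraries (log axis) against rank, for all microRNA genes with a count (grey), the 5 hairpins (red) and their 3 relatives (dark squares). Mir378a is at rank 4, and the other 4 lie between rank 144 and rank 359.

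The difference between the libraries was larger than counting error for 2 of the 5 hairpins, Mir378a and Mir193b, in opposite directions. An exact two-sided binomial test of the counts against the library totals was run over all 352 detected genes with Benjamini-Hochberg adjustment. It called 67% of them, 36.6% as higher in replicate 1 and 30.4% as higher in replicate 2, so 2 of 5 is no more than the background. The test compares the reads of these libraries and not conditions. With Mir122 out of the totals Mir378a and Mir193b were again the 2 called, both as higher in replicate 2, beside 71.3% of all detected genes called and 50% called in that direction. The median log2 ratio of the 5 hairpins with all counts in the totals, replicate 1 over replicate 2, was 0.09, beside 0.04 for all detected genes.

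Mir378a was 1.07-fold higher in replicate 1 than in replicate 2 (1.06 to 1.07; adjusted p = 4.66e-109 by the exact binomial test). That size follows from the total chosen. With Mir122 out of the totals it stood at 62406 CPM in replicate 1 and 72887 CPM in replicate 2, and was 1.17-fold higher in replicate 2 (1.16 to 1.17), again past the threshold. Per 1000000 input reads, mapped or not, it had 25817 counts in replicate 1 and 25826 in replicate 2, with an adjusted p of 0.939 by the same exact test. Relative to the median gene its log2 ratio was 0.05 with all counts in the totals and 0.04 without Mir122, and 31 of the other detected genes lay closer to that median. The direction of the Mir378a difference therefore depends on the total, and the size was at most 1.17-fold under the totals compared here.

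Mir193b was 1.56-fold higher in replicate 2 than in replicate 1 (1.42 to 1.72; adjusted p = 5.31e-20 by the exact binomial test). Without Mir122 in the totals it was 1.95-fold higher in replicate 2 (1.77 to 2.15; adjusted p = 1.46e-43, same exact test). Relative to the median gene the log2 ratio, replicate 1 over replicate 2, was -0.68 and -0.69 under those totals, and 246 detected genes lay closer to the median. Its higher level in replicate 2 held under every total, column and pseudocount tried.

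The remaining 3 hairpins did not pass the test, and their counts leave wide intervals. For Mir378c the level of replicate 1 was 1.14 times that of replicate 2 (0.937 to 1.39; adjusted p = 0.241, exact binomial test). The same ratio was 0.928 for Mir365-1 (0.386 to 2.16) and 1.27 for Mir365-2 (0.845 to 1.90). At these counts the interval for Mir365-1 does not exclude a difference of 2-fold in either direction.

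**Figure D3:**
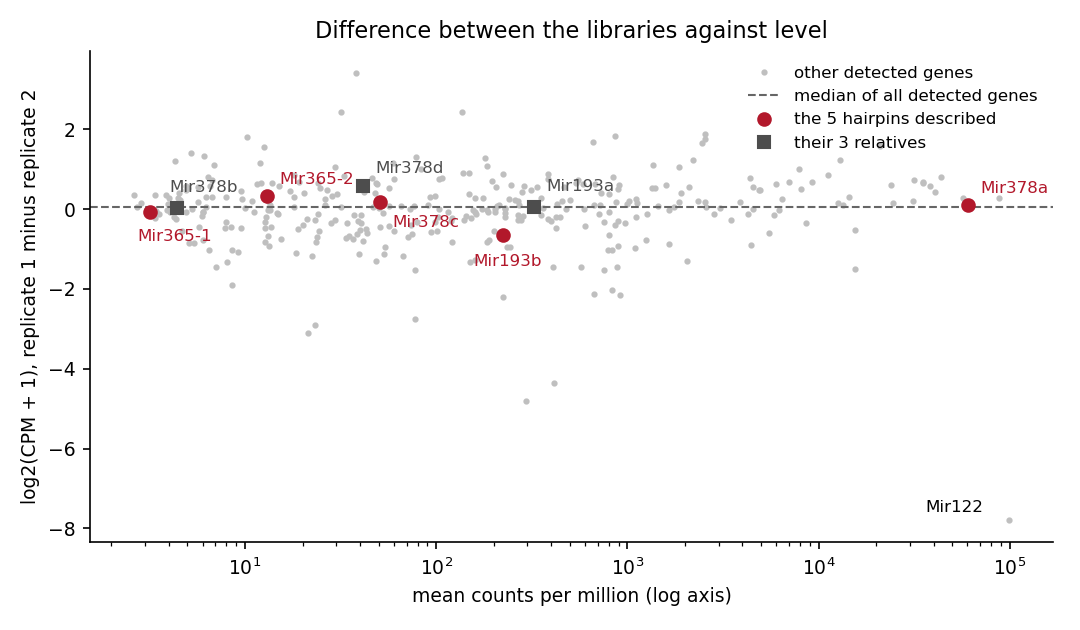
Difference between the libraries, log2(CPM + 1) of replicate 1 minus replicate 2, against mean CPM (log axis) for the 352 detected genes (grey), the 5 hairpins (red) and their 3 relatives (dark squares), with the median of all detected genes as a dashed line. Mir378a lies 0.05 from that line, Mir193b at -0.68 relative to it, and Mir122 is the lowest point.

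**Figure D4:**
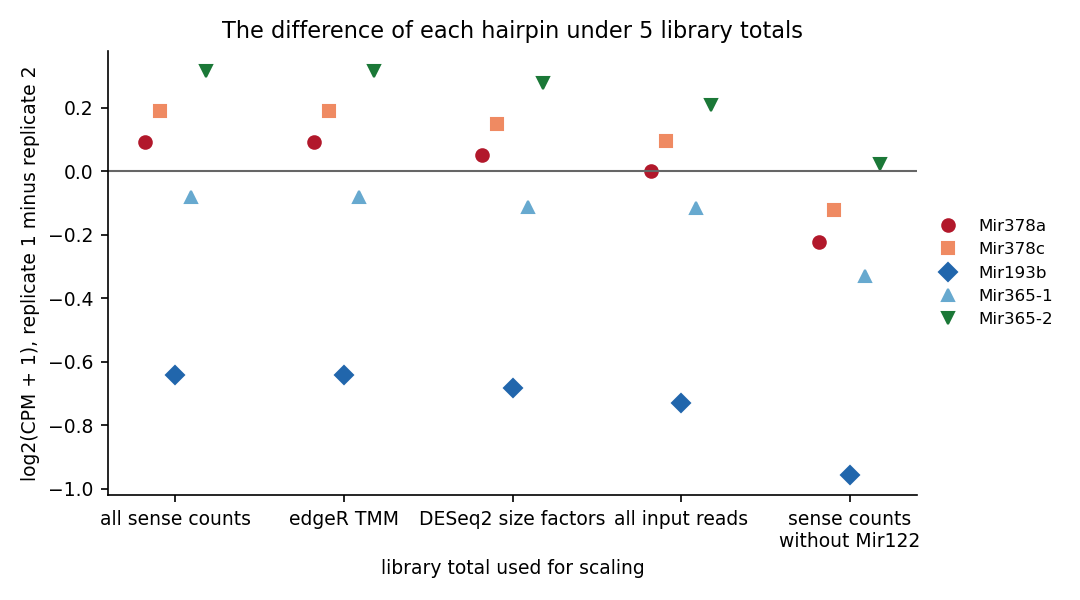
Difference of each hairpin between the libraries, log2(CPM + 1) of replicate 1 minus replicate 2, under 5 choices of library total. Mir193b stays below 0 at each choice, from -0.64 to -0.96, while Mir378a lies at 0.09 with all sense counts and at -0.22 without Mir122.

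Other tissues in which Mir378a is abundant were followed through their own hairpins. Mir378a is a known microRNA of striated muscle, and the 10 hairpins of the muscle list held 3611 counts in replicate 1 and 16 in replicate 2. Of those in replicate 1, 3540 were from Mir206, and none of the 10 was detected in both libraries. The list's share was 0.101% of counts in replicate 1 and 0.000352% in replicate 2. These shares are lower limits, since 5 of the 10, the miR-1a and miR-133 hairpins, share 20 bases or more with another hairpin and their common reads were not counted. Mir133a-2 and Mir133b, both of these 5, were listed at 0, which for that reason does not show them absent. The part of muscle RNA in the Mir378a level was not tested.

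The 6 liver hairpins moved the other way, with 0.157% of counts in replicate 1 and 20.0% in replicate 2. Mir148a, Mir192 and Mir194-2 followed Mir122 in level, and all 4 detected members were called higher in replicate 2, a direction in which 30.4% of all detected genes were called, and 50% without Mir122 in the totals. The part of liver RNA in the Mir378a level and in the Mir193b difference was not tested. Endothelial hairpins, led by Mir126a, held 6.80% and 6.84% in replicates 1 and 2, and the neuroendocrine list, led by Mir375, held 4.01% and 3.38%. The erythroid hairpins Mir451a and Mir144 held 0.149% and 0.125%. No marker list of brown fat cells was used, and the part of fat attached to the gland in the Mir378a level was not tested.

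Hairpins with reported roles in brown fat other than these 5 were mostly detected, where 352 of all 2202 genes were. The lists were chosen with earlier results of these data known, so how many were detected is a description and not a test. Of 15 hairpins reported to promote brown or beige fat, in mice for most and in human fat cells for the miR-26 family, all 15 were detected. They held 4.59% of counts in replicate 1 and 2.92% in replicate 2, a lower limit, since 8 of the 15 share 20 bases or more with another hairpin. Mir26b led with 39259 and 23636 CPM in replicates 1 and 2, followed by Mir203 with 3085 and 1313 CPM. Mir455, which in mice acts against a brake on brown fat commitment, had 928 and 1588 CPM. Mir328 had 1035 and 1190 CPM. The binomial test called 5 of the 15 higher in replicate 1 and 5 higher in replicate 2, where 36.6% and 30.4% of all detected genes were so called. Without Mir122 in the totals it called 5 and 9, beside 21.3% and 50% of all detected genes. The list's median log2 ratio was 0.0027, beside 0.04 for all detected genes.

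Set beside 352 of all 2202 genes, 9 of 13 hairpins reported to restrain brown or beige fat in mice were detected. They held 5.73% of counts in replicate 1 and 4.69% in replicate 2. Mirlet7i led with 46644 and 34922 CPM in replicates 1 and 2. Mir27b, of a family that represses Prdm16, had 4565 and 4548 CPM in replicates 1 and 2, a log2 ratio of 0.0055 with all counts in the totals and -0.31 without Mir122, and it shares bases with another hairpin. Mir93 had 4097 and 3653 CPM, and its cluster neighbour Mir106b had 333 and 1486 CPM. The test called 4 of the 9 higher in replicate 1 and 3 higher in replicate 2, beside 36.6% and 30.4% of all detected genes. Without Mir122 in the totals it called 1 and 6, beside 21.3% and 50% of all detected genes. The median log2 ratio of the 9 was 0.0055, and 7 of the 13 share 20 bases or more with another hairpin. Mir133a-2, Mir133b and Mir327 had no count in either library, and Mir133a-1 had 3 counts in replicate 1 and 0 in replicate 2, but the miR-133 hairpins share bases, so reads common to them were not counted.

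**Figure D5:**
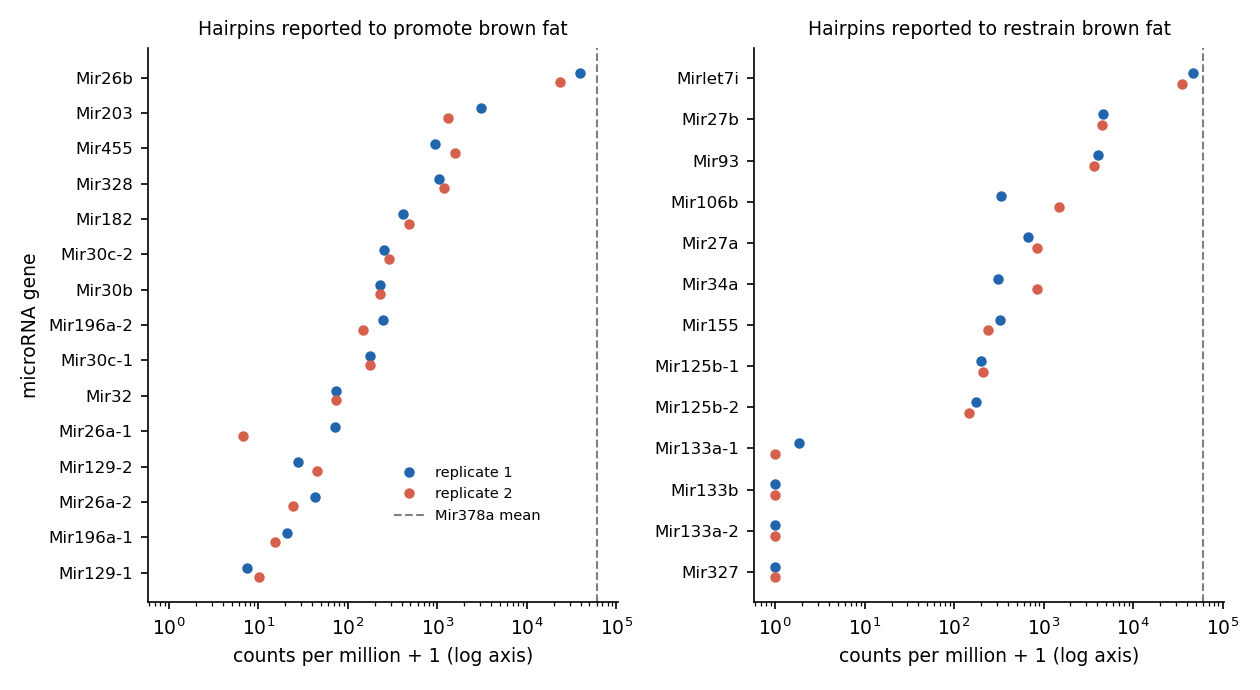
CPM plus 1 (log axis) in replicate 1 (blue) and replicate 2 (red) for hairpins reported to promote (left) and to restrain (right) brown fat, with the mean of Mir378a as a dashed line. By counted reads each lies below Mir378a in both libraries, Mirlet7i and Mir26b being the nearest.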

How the data were processed

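Small RNA of 2 adrenal gland libraries of 1 group was analysed. The authors deposited raw counts of reads per microRNA gene, not normalised, on mm10 with GENCODE M21, per the text files beside the tables. The aligner and any adapter trimming were not given in the sources used here. After 4 summary lines, which were left out of all totals except that of input reads, each table holds 3 count columns (either strand, sense and antisense). Total sense counts were 3588361 and 4541373.

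All 2202 identifiers were found in GENCODE M21. Sense counts were divided by their total to give CPM, and log2 ratios used a pseudocount of 1 CPM. Intervals are exact at 95% (Poisson for levels, Clopper-Pearson for ratios) and cover counting error alone: without molecular identifiers, reads are not independent molecules. The binomial and Fisher tests compare libraries, not conditions. A simulation of the 352 detected genes drew Poisson counts, so it held counting error alone. In it, that binomial test found 56.7% of the genes changed 1.2-fold, 81.8% of those changed 1.5-fold, and 91.0% of those changed 2-fold. It called 0.658% of the unchanged genes. These rates do not measure how the test performs on the real libraries, which may differ by more than counting error. Shared runs were the longest identical stretches between GENCODE hairpins, and the printed sequences are from RefSeq (GRCm38.p6), in which both Mir365 hairpins matched GENCODE.

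Named were the 5 hairpins, 3 relatives, up to 4 leading members of each of 9 lists, the 3 detected genes nearest in level to a member, and Mir122. Gm25301, Mir1941, Mir26a-1, Mir26a-2, Mir133a-1, Mir133a-2, Mir133b and Mir327 were named after their values were seen. The members and lists were chosen with earlier results of these data known. Alternatives were other totals (edgeR 4.0.16 TMM, DESeq2 1.42.0 size factors, input reads, no Mir122), the either-strand column, pseudocounts, count minimums and each library left out. Computation used Python 3.11.15, scipy 1.17.1 and R 4.3.3.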

Additional observations from a re-analysis of the deposited data

How the results depend on the processing

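Of 84 alternative values, 66 kept their direction and call, or moved by less than the spread between replicates. For the count of genes called, only its size was judged, not the direction of the calls. With 2 libraries, a level with a library left out always lies within that spread, so those values could not count as moved. The either-strand ratios of the miR-365 to miR-193 pairs repeat the main ratios, since the same reads were counted. The TMM factors were 0.999958 for replicate 1 and 1.00004 for replicate 2, so the values under TMM nearly repeat the main ones. The 66 therefore overstates how firm the results are. The mean level of Mir378a, 60419 CPM, was 67646 CPM with Mir122 out of the totals, 0 with either-strand counts and 25822 per 1000000 input reads. Leaving out a library gave 58488 to 62350 CPM. The summed share of the 5 hairpins, 6.07%, became 6.80%, 0.0344% and 2.59% under the same 3 settings, and 5.88% to 6.26% with a library left out. The either-strand value has a shown cause, since Mir378a and Gm25301 overlap on opposite strands and reads fitting both are not counted there. The log2 ratio of Mir378a, replicate 1 over replicate 2, turned from 0.09 to -0.22 without Mir122 and to -0.00050 per input read, and that of Mir378c from 0.19 to -0.12 without Mir122. The change of total is the cause by construction. Mir193b kept its direction and its call at all 8 settings, from -0.96 to -0.62. The count of genes called, 236, stayed between 208 and 251 under the alternatives, but those higher in replicate 1 fell from 129 to 75 without Mir122. The ratio of Mir378c to Mir378a could not be formed from either-strand counts. No paired analysis was possible because there is a single group. Low counts limit Mir365-1 most, with 11 and 15, and its reads common to Mir365-2 were not counted.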

Other observations

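The miR-193 hairpins of the same 3p seed stood in different proportion in the libraries. Mir193b had 0.531 counts per count of Mir193a in replicate 1 (0.481 to 0.586, exact 95% interval) and 0.854 in replicate 2 (0.791 to 0.922). This ratio does not depend on the library total. It was chosen after the values were seen and was not tested. Mir193a itself lay within 0.0013 of the median gene on the log2 scale, with all counts in the totals.

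Among the hairpins reported to promote brown fat, Mir26a-1 had the widest gap, with 252 counts in replicate 1 and 26 in replicate 2, while its copy Mir26a-2 had 152 and 107 counts. Both share 20 bases or more with another hairpin, so these counts come from reads outside the common stretch. They were picked after their values were seen.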
